A study of Mus musculus with 3 samples.

Results

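The genes of the cornified envelope and the skin barrier were followed across the keratinocytes of 3 single-cell libraries. The 38 genes were chosen by name and not by a rule on their values, although earlier results of these data were known. All 38 were found among the 32285 genes of the deposited matrices. By role they were 6 envelope proteins (Lor, Ivl, Flg, Flg2, Hrnr, Cnfn), 6 secreted proteins, keratins and the calmodulin-like Calml3 (Krtdap, Sbsn, Dmkn, Krt2, Krt79, Calml3), 5 small proline-rich proteins (SPRR: Sprr1a, Sprr1b, Sprr2a1, Sprr2d, Sprr3) and 4 late cornified envelope proteins (LCE: Lce1a1, Lce1b, Lce1c, Lce3c). The others were 2 transglutaminases (Tgm1, Tgm3), 6 proteases and inhibitors (Cst6, Casp14, Klk5, Klk7, Asprv1, Spink5), 3 genes of corneodesmosomes (Cdsn, Dsg1a, Dsc1), 5 genes of barrier lipids (Alox12b, Alox12e, Aloxe3, Abca12, Cers3) and the transcription factor Grhl3.

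The skin came from wild-type C57BL/6J mice that were 8 weeks old at the start, and each of the 3 conditions gave 1 library of dissociated full-thickness dorsal skin. CON mice were not irradiated. UV mice were exposed on alternate days over 12 weeks to UVB (3.5 mW/cm2) together with UVA (0.60 mW/cm2), and Rux mice received the same irradiation, each time followed by a 1.5% ointment of ruxolitinib, an inhibitor of the kinases JAK1 and JAK2. According to the study, CON and UV skin received the vehicle. Skin was collected 24 h after the last exposure, and the number of mice behind each library is not given in the sources used here. The comparisons were UV with CON, which asks how the barrier genes stood after chronic irradiation, and Rux with UV, which asks how they stood when the drug was applied to irradiated skin. Both comparisons use the same UV library.

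Keratinocytes that leave the basal layer replace Krt5 and Krt14 with Krt1 and Krt10, and then, in the granular layer, make the proteins of the cornified envelope. Transglutaminases cross-link involucrin, loricrin, SPRR and LCE proteins beneath the plasma membrane, filaggrin and its relatives are processed by proteases such as Casp14 and Asprv1, and lipids carried by Abca12 and oxidised by lipoxygenases seal the spaces between the dead cells. The kallikreins Klk5 and Klk7 cut the corneodesmosomes so that the surface can shed, and Spink5 and Cst6 restrain proteases. Hair follicles share many of these genes in their upper part, where the canal is lined by cornifying cells, and in their inner sheath.

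The CON, UV and Rux matrices held 13170, 12411 and 11287 cells with 165337289, 133972374 and 131570327 UMIs, where a UMI is a tag that marks 1 captured transcript. After filters on detected genes, mitochondrial UMIs and doublet scores, 10777, 10231 and 9299 cells were retained, with medians of 7530, 7616 and 9443 UMIs. CON and UV shared 50 cell barcodes, CON and Rux 28, and UV and Rux 40, where 24.1, 21.9 and 20.6 would be shared by chance. The labels call the mice female, while Xist had 0.0925, 0.121 and 0.112 CPM (UMIs per 1000000 UMIs) in CON, UV and Rux and the Y-linked Ddx3y 110, 116 and 122 CPM, so all 3 libraries went against that label in the same way. With 1 library per condition no difference has a replicate check, and no test was possible. Intervals are exact 95% intervals for counted molecules or cells and cover counting error only.

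Cells were clustered without the 38 genes and without 87 further genes of cornification, so that the values of these genes did not decide which cells were grouped. The keratins Krt1, Krt10, Krt5 and Krt14, whose values are also given, were not left out. Of 47 clusters, 20 were epithelial by their markers, with 3732 cells in CON, 1979 in UV and 1627 in Rux, or 34.6%, 19.3% and 17.5% of the retained cells. Cluster 12 was suprabasal-like, led by Krt77, Krt10 and Krt1, with all 6 suprabasal markers detected. It held 259 cells in CON, 4 in UV and 15 in Rux, which are 2.40% (2.12% to 2.71%), 0.0391% (0.0107% to 0.1%) and 0.161% (0.0903% to 0.266%) of retained cells. Since nearly all of its cells came from CON, cells were also taken by a gate that does not depend on the bounds of cluster 12. It took cells of the epithelial clusters in which Krt1 and Krt10 gave at least 1% of the UMIs. The gate took 221, 20 and 38 cells, or 2.05%, 0.195% and 0.409%, so cells of either definition were scarce in UV and Rux. Both definitions draw on Krt1 and Krt10 transcripts, so they cannot tell fewer suprabasal cells from less of this RNA per cell. In the histology of the study, UV skin had a thickened and hyperkeratotic epidermis.

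Further classes are called by their number because several could not be given a single name. Cluster 4 was interfollicular-basal-like, with 467, 22 and 77 cells. Cluster 7 lay between upper-follicle and suprabasal markers, with 256, 87 and 91 cells, and its summed upper-follicle markers reached 20719, 16102 and 15651 CPM against 6054, 3827 and 7959 CPM for the suprabasal ones. Cluster 3 lay between upper-follicle and interfollicular-basal markers, with 299, 223 and 154 cells, cluster 9 was outer-sheath-like or companion-layer-like, with 83, 113 and 186, and cluster 2 was inner-sheath-like, led by Krt71 and Tchh, with 207, 276 and 206. Cluster 10, between inner-sheath and dividing markers, held 5, 243 and 129 cells, and cluster 6, of dividing cells, held 0, 275 and 213. Cluster 23 stayed unnamed because of its low UMI counts, held 17, 15 and 21 cells with medians of 6439, 2115 and 2112 UMIs, and was led by Lor, Lce1m and Crct1.

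**Figure D1:**
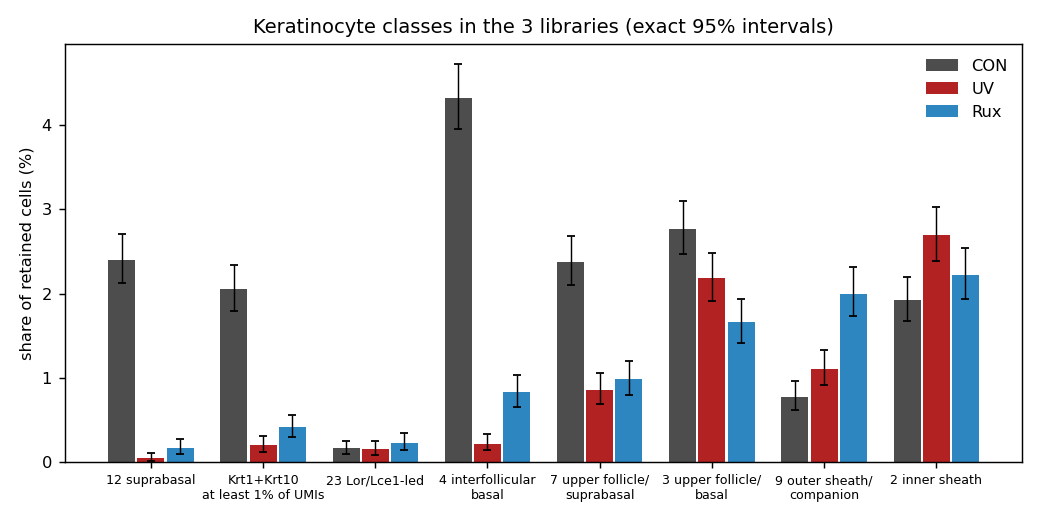
Share of retained cells (y axis, percent, starting at 0) in 7 keratinocyte clusters and in the gate on Krt1 plus Krt10 (x axis), for CON (grey), UV (red) and Rux (blue), with exact 95% intervals as bars. Cluster 12 stands at 2.40% in CON, 0.0391% in UV and 0.161% in Rux and the gate at 2.05%, 0.195% and 0.409%, while cluster 9 has the opposite order, with 0.770%, 1.10% and 2.00%.

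In the mouse genome (GRCm38), 14 of the 38 genes lie within 1.25 Mb of chromosome 3, from 92080271 to 93333570, the epidermal differentiation complex, and a further 7 lie on chromosome 7. The 14 are Lor, Ivl, Flg, Flg2, Hrnr and all SPRR and LCE members. Promoter sequences of 6 of the 14 are shown because the Lce1 genes and Lor were the members with the largest ratios between the libraries, and the neighbouring Sprr1 genes the ones that differed from them. Each is the stretch of 120 bases just before the RefSeq start, from the 5′ to the 3′ end in the direction of transcription, on GRCm38.p6. In the windows of Lor, Sprr1a and Sprr1b the capitals mark a motif of the AP-1 factors (TGANTCA) and a TATA box (TATAAA), and in the Lce1 windows they mark CAGAGCCCAG, the longest run that the 3 windows share.
Lor, chr3:92083143-92083262, minus strand: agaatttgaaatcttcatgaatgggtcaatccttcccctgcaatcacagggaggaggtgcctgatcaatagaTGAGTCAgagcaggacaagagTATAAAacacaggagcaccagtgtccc
Sprr1a, chr3:92485882-92486001, minus strand: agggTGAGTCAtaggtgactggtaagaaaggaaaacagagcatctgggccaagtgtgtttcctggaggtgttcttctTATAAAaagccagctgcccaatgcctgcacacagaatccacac
Sprr1b, chr3:92438780-92438899, minus strand: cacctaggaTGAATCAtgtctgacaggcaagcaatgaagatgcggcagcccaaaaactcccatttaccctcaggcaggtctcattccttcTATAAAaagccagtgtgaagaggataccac
Lce1a1, chr3:92648308-92648427, minus strand: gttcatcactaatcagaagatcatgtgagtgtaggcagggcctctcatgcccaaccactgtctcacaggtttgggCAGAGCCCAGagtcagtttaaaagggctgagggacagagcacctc
Lce1b, chr3:92656927-92657046, minus strand: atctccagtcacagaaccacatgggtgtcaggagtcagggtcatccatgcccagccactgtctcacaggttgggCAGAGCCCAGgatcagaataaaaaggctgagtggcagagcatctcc
Lce1c, chr3:92679127-92679246, plus strand: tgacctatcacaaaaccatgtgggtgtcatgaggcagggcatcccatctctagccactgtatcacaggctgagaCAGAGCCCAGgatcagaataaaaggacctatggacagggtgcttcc
The AP-1 motif began 48, 116 and 111 bases before the start of Lor, Sprr1a and Sprr1b. RefSeq gave promoters for 32 of the 38 genes. With both strands searched over 250 bases before the start, 10 of the 32 held TGANTCA (Dmkn, Flg, Flg2, Ivl, Krtdap, Lor, Sbsn, Sprr1a, Sprr1b and Sprr2d), or 31.2% against 6.75% of all 32851 promoters, and 0 LCE windows did. TATAAA was in 31.2% of the members and 12.4% of all promoters. The palindrome TTCNNNGAA, the letters that STAT factors bind, was in 2 of 32, Cdsn and Tgm1, or 6.25% against 7.02% of all promoters. CAGAGCCCAG occurred in 0.475% of all promoters. A match of letters is a description of these windows and does not show that a factor binds there.

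Reads of near-identical genes can be shared. Over the last 500 bases of the transcript, all stretches of 91 bases of Sprr2a1 also occurred in Sprr2a2 and Sprr2a3, as did 29.8% of those of Lce3c in Lce3b, Lce3d, Lce3e and Lce3f, 8.29% of Lce1a1, 4.15% each of Lce1b and Lce1c, and 46.1% of Sbsn in Tmem147os. Values of Sprr2a1, Lce3c and Sbsn are therefore uncertain.

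Across the classes, most members were highest in cluster 23, 7 in cluster 7 and 4 in cluster 12. Over the 3 libraries together, cluster 23 had the highest CPM for 24 of the 38 members, among them Lor with 71434 CPM against 135 CPM in cluster 12 and 71.6 CPM in cluster 7, and Lce1a1 with 21569 CPM against at most 2.27 CPM in any other epithelial cluster. Cluster 7 led for Cst6 (cystatin M/E, an inhibitor of cysteine proteases), with 17523 CPM, for Krt79, a keratin of the follicle canal, with 6450 CPM, and for Klk7, with 927 CPM. Cluster 12 led for Dmkn, with 2699 CPM, for Spink5, with 314 CPM, and for Dsg1a, the desmosomal cadherin of upper layers, with 635 CPM. Tgm3 was highest in the basal-like cluster 4, with 51.4 CPM, and Cers3 in cluster 19, with 60.5 CPM. Of the 38 genes, 36 had at least 20 UMIs in epithelial cells. Sprr3 had 1 UMI, and Sprr2a1 had 0, 9 and 2.

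**Figure D2:**
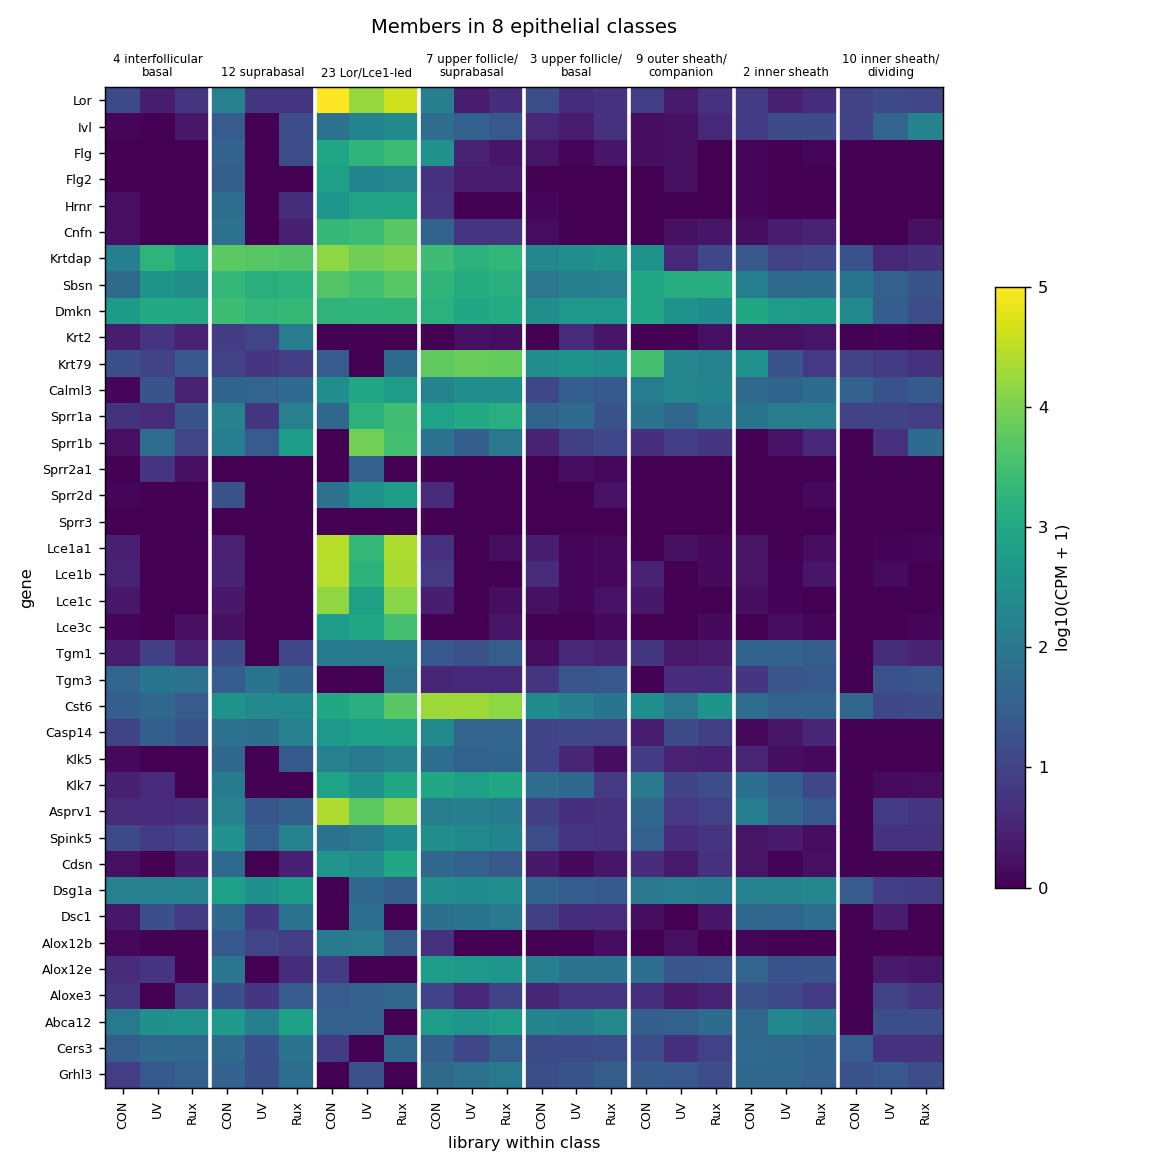
Level of each of the 38 genes (rows) in 8 epithelial classes, with CON, UV and Rux as the 3 columns of each class, as log10 of CPM plus 1 on a colour scale from 0 (dark) to 5 (yellow). The brightest fields are Lor, the Lce1 genes and Asprv1 in cluster 23, with 106762 CPM of Lor in CON, and Cst6 and Krt79 in cluster 7. A column can rest on few cells, such as the 4 UV cells of cluster 12.

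In all epithelial cells together, more barrier genes stood lower in UV than in CON, and most stood higher in Rux than in UV. Levels were compared as CPM of the summed UMIs and as log2 ratios with 0.5 UMI added, leaving out genes that averaged under 10 CPM across the libraries or had under 20 UMIs in all. Such sums cannot tell apart fewer cells of a type and less RNA per cell. Of the 24 members that passed this filter, 9 were at least 2-fold lower in UV than in CON and 1 was at least 2-fold higher, against 0.899% and 1.43% of the 8673 genes that passed. Their median log2 ratio was -0.75, that of all genes -0.04. In Rux over UV, 0 members were at least 2-fold lower and 5 at least 2-fold higher, against 0.715% and 0.646% of all genes, with medians of 0.71 and -0.02. All 24 ratios of Rux over UV were above 0. Casp14, 1 of the 9, passed the filter through its CON level alone. Lce1c, counted among the 9 and the 5, passed only through its CON and Rux levels together, so it had to differ from UV.

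**Figure D3:**
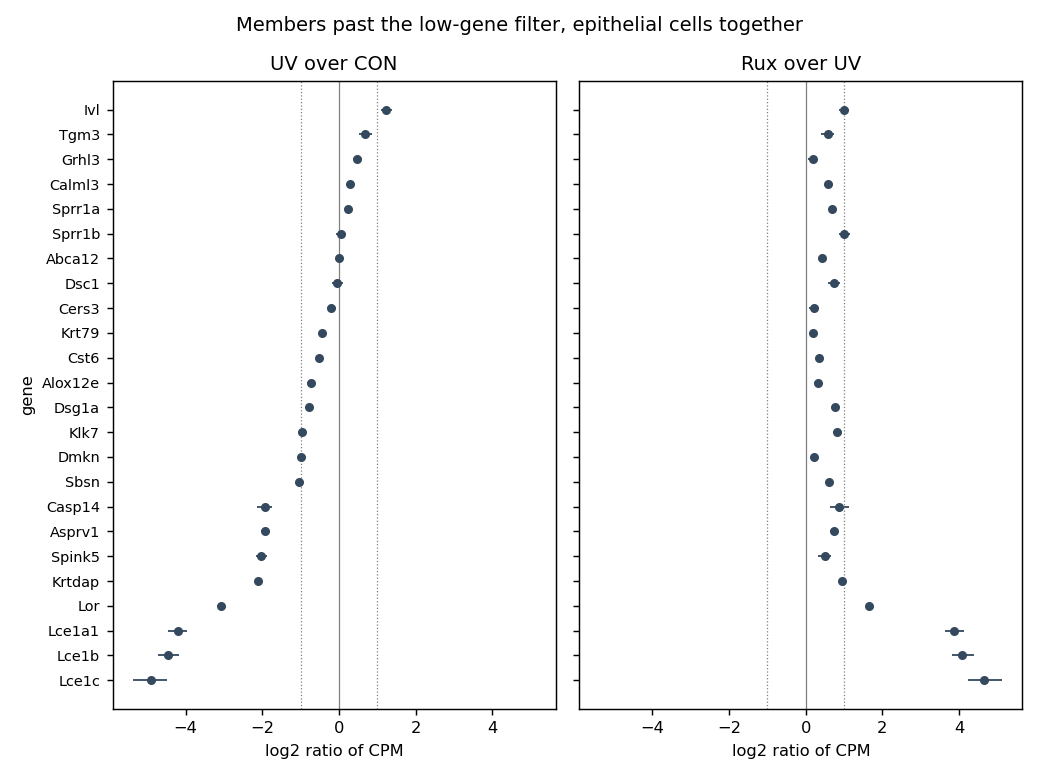
Log2 ratio of CPM (x axis) of the 24 members that passed the filter (y axis, ordered by the ratio of UV over CON), with exact 95% counting intervals, for UV over CON on the left and Rux over UV on the right. Dotted lines mark a 2-fold difference. The 3 Lce1 genes and Lor lie farthest to the left in UV over CON, from -4.90 to -3.09, and farthest to the right in Rux over UV, from 1.65 to 4.64.

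Among the envelope proteins, Lor (loricrin, the main protein of the mature envelope) had 203 CPM in CON, 23.8 CPM in UV and 74.6 CPM in Rux. It was thus 8.53-fold lower in UV than in CON (log2 -3.09, -3.18 to -3.01) and 3.14-fold higher in Rux than in UV (1.65, 1.56 to 1.75). Ivl (involucrin, an early scaffold of the envelope) had 7.02, 16.5 and 33.0 CPM. Among the 24 members that passed the filter it was the only one at least 2-fold higher in UV than in CON (log2 1.23, 1.09 to 1.39), and Rux over UV lay just under 2-fold (1.00, 0.87 to 1.12). The order of the libraries was therefore opposite for these 2 envelope genes in CON and UV.

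The filaggrin family and Cnfn were below the filter, and their values are given without a call. Flg (filaggrin, which bundles keratin filaments) had 1619 UMIs in CON, 120 in UV and 208 in Rux, or 18.2, 2.26 and 4.93 CPM. Flg2 had 319, 14 and 18 UMIs, or 3.58, 0.264 and 0.426 CPM, and Hrnr (hornerin) 441, 52 and 61 UMIs, or 4.95, 0.979 and 1.45 CPM. Cnfn (cornifelin) had 933, 182 and 406 UMIs, or 10.5, 3.43 and 9.62 CPM. For each of these 4 genes UV was the lowest library in CPM, and Cnfn in Rux came closest to its level in CON.

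The 3 Lce1 genes, late envelope components, gave the largest differences among the members that passed the filter. Lce1a1 had 49.1 CPM in CON, 2.66 in UV and 39.1 in Rux, with log2 ratios of -4.20 (-4.46 to -3.97) and 3.88 (3.63 to 4.14). Lce1b had 47.4, 2.17 and 37.1 CPM (-4.45 and 4.09), and Lce1c, which had to differ by the filter, 25.6, 0.847 and 21.4 CPM (-4.90 and 4.64). These rest on few cells. In Rux the cell with the most UMIs held 828 of the 1652 UMIs of Lce1a1, and only 26 of 1627 cells had any. Lce3c, below the filter, had 95, 66 and 244 UMIs, or 1.07, 1.24 and 5.78 CPM (0.22 and 2.21), and so was not lower in UV.

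The SPRR genes, cross-bridging proteins that also appear under stress, differed among themselves. Sprr1a had 68.3 CPM in CON, 80.2 in UV and 129 in Rux, with log2 ratios of 0.23 (0.17 to 0.29) and 0.69 (0.63 to 0.74), both within 2-fold. Sprr1b had 12.9, 13.4 and 27.1 CPM and was 2.02-fold higher in Rux than in UV (1.01, 0.88 to 1.15). Sprr2d, below the filter with 129, 28 and 48 UMIs, had 1.45, 0.527 and 1.14 CPM (-1.44 and 1.10), the order of the Lce1 genes. Neither Sprr1 gene was lower in UV than in CON over all epithelial cells, although Sprr1b was once cluster 23 was left out, as given further on.

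Of the secreted proteins of the suprabasal layers, Krtdap (keratinocyte differentiation-associated protein) had 542 CPM in CON, 126 in UV and 242 in Rux, a 4.31-fold difference between CON and UV (log2 -2.11, -2.14 to -2.07) and 0.94 (0.90 to 0.99) in Rux over UV. Sbsn (suprabasin) had 332, 160 and 242 CPM (-1.05 and 0.60). Dmkn (dermokine), the neighbour of both on chromosome 7, had 553, 280 and 327 CPM, just within 2-fold (-0.98 and 0.22). Krt79 had 434, 317 and 362 CPM, and Calml3 34.2, 41.7 and 62.0 CPM. Krt2, a keratin of late suprabasal cells, had only 55, 32 and 89 UMIs, of which 65 in Rux lay in 1 cell. The suprabasal keratins outside the list were also lower in UV than in CON and higher in Rux than in UV, with 471, 73.0 and 236 CPM of Krt1 (-2.69 and 1.69) and 993, 167 and 498 CPM of Krt10 (-2.57 and 1.57), whereas Krt5, with 1646, 1338 and 1818 CPM, and Krt14, with 2394, 1988 and 2743 CPM, stayed within 2-fold.

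Of the proteases and inhibitors, 3 of the 5 that passed the filter were at least 2-fold lower in UV than in CON. Casp14, the caspase that takes part in filaggrin breakdown, had 17.6, 4.56 and 8.39 CPM in CON, UV and Rux (log2 -1.94, -2.15 to -1.75, and 0.88). Asprv1 (the retroviral-like protease SASPase, which cuts profilaggrin) had 84.9, 22.1 and 36.8 CPM (-1.94 and 0.73). Spink5, which encodes the inhibitor LEKTI, had 38.3, 9.38 and 13.2 CPM (-2.03 and 0.49). Klk7, one of the kallikreins that LEKTI restrains, had 60.3, 30.9 and 53.9 CPM (-0.97 and 0.81), and Klk5, below the filter, had 627, 82 and 117 UMIs, or 7.04, 1.54 and 2.77 CPM. Cst6 had 826, 572 and 729 CPM (-0.53 and 0.35). Protease and inhibitor thus stood lower together in UV, within 2-fold for Klk7 and Cst6.

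Among the genes of corneodesmosomes and of barrier lipids, those that passed the filter stayed within 2-fold, and Cdsn and Alox12b, both below it, did not. Dsg1a (desmoglein 1) had 98.1, 57.7 and 98.4 CPM (-0.77 and 0.77), Dsc1 (desmocollin 1) 10.6, 10.3 and 17.2 CPM (-0.04 and 0.74), and Cdsn (corneodesmosin) 560, 80 and 147 UMIs, or 6.29, 1.51 and 3.48 CPM (-2.05 and 1.21). Abca12, the lipid transporter of lamellar granules, had 83.8, 83.3 and 112 CPM (-0.01, -0.06 to 0.05, and 0.42). Cers3, the synthase of ceramides with very long chains, had 19.5, 17.1 and 19.8 CPM, and Alox12e, an epidermal lipoxygenase, 43.7, 26.1 and 32.6 CPM. Alox12b, the lipoxygenase whose loss causes ichthyosis, had 180, 12 and 8 UMIs, or 2.02, 0.226 and 0.190 CPM (-3.11, -4.14 to -2.32, and -0.23), and was the member with the lowest CPM in Rux relative to CON among those with at least 100 UMIs in CON. Its partner Aloxe3 had 482, 361 and 226 UMIs, or 5.41, 6.80 and 5.35 CPM.

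The cross-linking enzymes and the factor stood no lower in UV. Tgm3 had 6.43, 10.4 and 15.4 CPM (0.69 and 0.57), and Tgm1, below the filter, 652, 492 and 374 UMIs, or 7.32, 9.26 and 8.86 CPM. Grhl3, a grainyhead-like factor of terminal differentiation, had 16.1, 22.4 and 25.4 CPM (0.48 and 0.18).

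The members' UMIs lay in different clusters in different libraries, which bears on every value for epithelial cells together. Cluster 23 held 88.6%, 82.9% and 92.4% of the epithelial Lor UMIs of CON, UV and Rux, and 97.4%, 95% and 99% of those of Lce1a1. For Krtdap, cluster 12 held 67.8% of the UMIs in CON, and cluster 7 held 35.4% in UV and 40.2% in Rux. For Dsg1a, cluster 12 held 45.0% in CON, and cluster 2 held 45.0% in UV and 32.2% in Rux. For Ivl, cluster 7 held 34.4% in CON, clusters 10 and 6 held 34.8% and 34.1% in UV, and cluster 10 held 55.2% in Rux. Cst6 had 91.5%, 93.2% and 90.6% of its UMIs in cluster 7, so its sum over epithelial cells is in each library mostly a sum over that cluster.

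**Figure D4:**
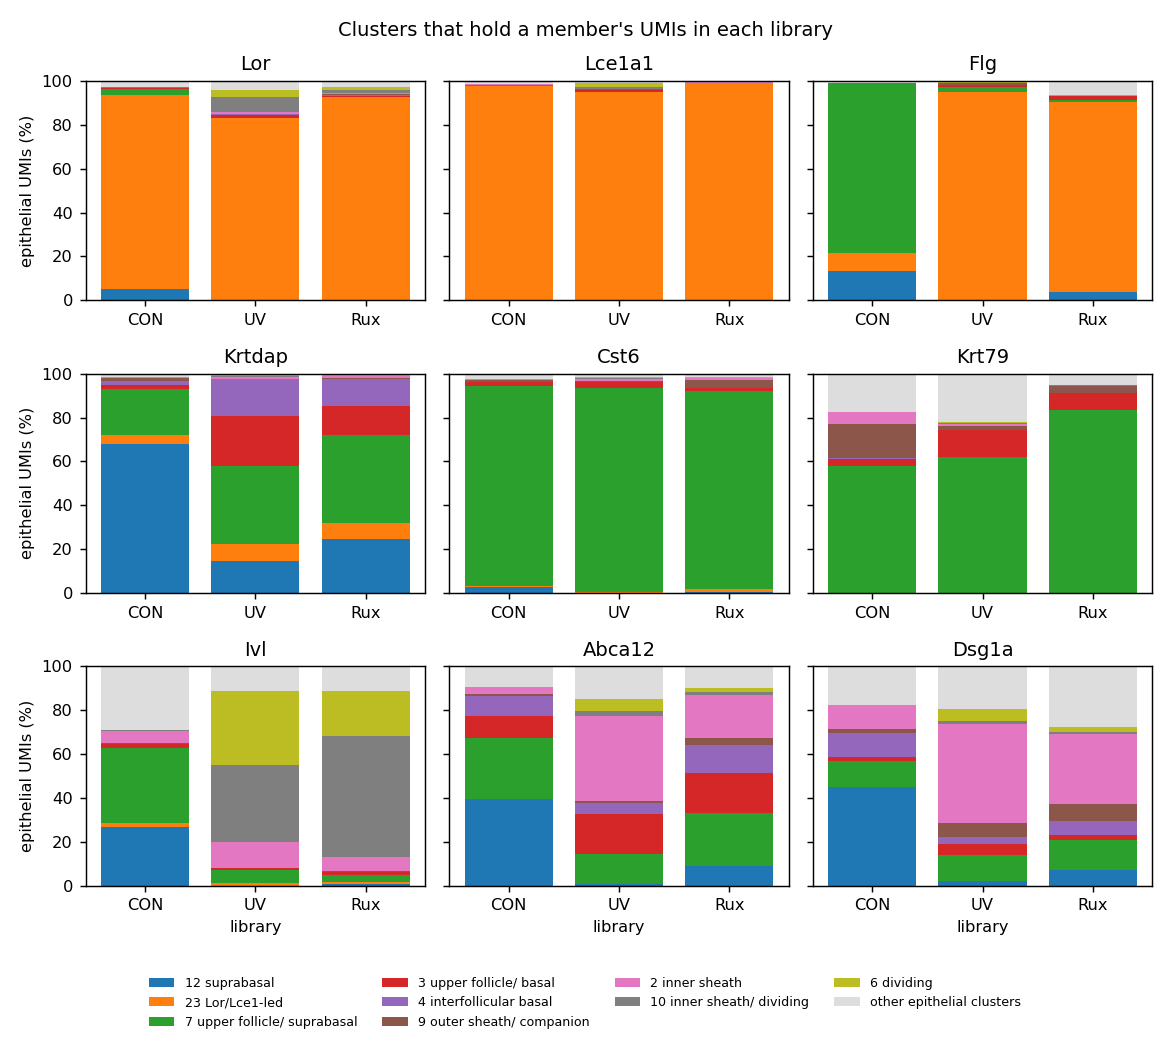
Share of a gene's epithelial UMIs (y axis, percent) held by each cluster (colours) in CON, UV and Rux (x axis), for 9 members. Lor and Lce1a1 are filled by cluster 23 in each library and Cst6 by cluster 7, whereas the cluster 12 part of Krtdap, 67.8% in CON, gives way to other clusters in UV and Rux.

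Applying the class proportions of CON to all libraries changed part of the picture. The count of members at least 2-fold lower in UV than in CON then was 6 in place of 9, with no share of all genes taken for this setting. The log2 ratio of Krtdap became 0.06, that of Ivl -0.41, that of Sbsn -0.31 and that of Casp14 -0.71, while Lor stayed at -2.67, Asprv1 at -1.72 and Spink5 at -1.50. The 4 UV cells of cluster 12 carry much weight in these values.

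Cluster 23 was small but held most of the late envelope transcripts. Its Lor UMIs numbered 15997 in 17 CON cells, 1046 in 15 UV cells and 2911 in 21 Rux cells, and those of Lce1a1 4256, 134 and 1635. A UMI of Lce1a1 was seen in 16 of 17 cells in CON, 4 of 15 in UV and 9 of 21 in Rux. Asprv1 had 3866, 340 and 827 UMIs. Other members were as frequent or more so per UMI in the UV and Rux cells of this cluster, with 921, 1859 and 2641 CPM of Flg and 2136, 2641 and 5325 CPM of Cnfn. Sprr1b had 0, 524 and 210 UMIs and Sprr1a 7, 100 and 203, and Krt1 had 4, 411 and 251. In CPM, Lor had 106762, 17055 and 42705 and Lce1a1 28404, 2185 and 23986 in this cluster. These values rest on 53 cells in all, with fewer UMIs per cell in UV and Rux.

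Without cluster 23, which was left out after its values were seen, 20 members passed the filter in the remaining epithelial cells. In UV over CON 6 were at least 2-fold lower and 1 was at least 2-fold higher, against 0.808% and 1.44% of 8662 genes, with a median of -0.64. In Rux over UV 0 were lower and 1 was higher, against 0.716% and 0.543%, with a median of 0.52. Lor then had 23.2, 4.07 and 5.67 CPM in CON, UV and Rux (-2.51, -2.72 to -2.31, in UV over CON), and its ratio of Rux over UV was 0.48. Lor passed the filter through its CON level alone, so it had to differ, and its place among the 6 is not read as a result. Sprr1b had 13.0, 3.58 and 22.2 CPM, so it was lower in UV than in CON (-1.85) and higher in Rux than in UV (2.63, 2.40 to 2.86). It passed the filter only through its CON and Rux levels together, so it had to differ from UV in both comparisons. Its place among the 6 and as the 1 higher member is not read as a result. Beside Lor and Sprr1b, Krtdap (-2.16), Sbsn (-1.05), Asprv1 (-1.40) and Spink5 (-2.04) were the other members at least 2-fold lower in UV.

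The gated cells came from different clusters in each library. In CON 200 of the 221 lay in cluster 12, 18 in cluster 7 and 0 in cluster 23. In UV 4 of the 20 lay in cluster 12, 6 in cluster 7 and 7 in cluster 23, and in Rux 15 of the 38 lay in cluster 12, 12 in cluster 7 and 9 in cluster 23. Values within the gate therefore compare different mixtures of cells, and no ratio is given, because UV and Rux held under 50 cells. Krtdap had 6177 CPM (6111 to 6244) in CON, 4301 (4117 to 4491) in UV and 4779 (4641 to 4919) in Rux. Krt1 had 6441, 5922 and 8782 CPM, a level that the gate itself in part sets. Casp14 had 89.5, 90.2 and 158 CPM and Cnfn 85.4, 86.0 and 110 CPM. Lor had 166, 138 and 656 CPM, of which 95.2%, 100% and 94.7% lay in the 5 cells with the most. Loricrin transcripts were thus present in single gated cells of each library and not detected in most.

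Other members of the gated cells stood apart between CON and UV. Spink5 had 401 CPM (384 to 418) in CON, 81.8 (58.2 to 112) in UV and 195 (168 to 225) in Rux. Dsg1a had 698, 266 and 466 CPM and Abca12 544, 268 and 577 CPM. Cdsn had 55.1 CPM in CON, 2.10 in UV and 47.1 in Rux, on 1 UMI in UV. Flg2 had 193 UMIs in CON and 0 in both UV and Rux, where a count of 0 allows up to 6.29 and 3.14 CPM. In the other direction Sprr1b had 185, 547 and 478 CPM, and Krt14, the basal keratin, had 2834, 10930 and 6889 CPM. The gated UV and Rux cells therefore carried more basal keratin transcript than those of CON, and its part in the other differences was not tested.

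Cluster 7, the cells between upper-follicle and suprabasal markers, was the class richest in barrier genes with enough cells in all 3 libraries. Of the 38 members 25 passed the filter. In UV over CON 6 of them were at least 2-fold lower and 0 higher, against 2.83% and 2.51% of 8035 genes, with a median of -0.42 for the members and -0.02 for all genes. In Rux over UV 0 were lower and 3 higher, against 1.90% and 1.75%, with medians of 0.16 and 0.06. The 6 lower genes were Lor, Flg, Cnfn, Casp14, Cers3 and Sprr1b, the 3 higher ones Lor, Sprr1b and Cers3. Lor, Flg and Cnfn passed the filter through their CON level alone, so they had to differ, and nothing is read from the count of 6. Lor was counted as higher in Rux on 2 and 7 UMIs. The LCE genes did not pass, with at most 22 UMIs in CON.

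**Figure D5:**
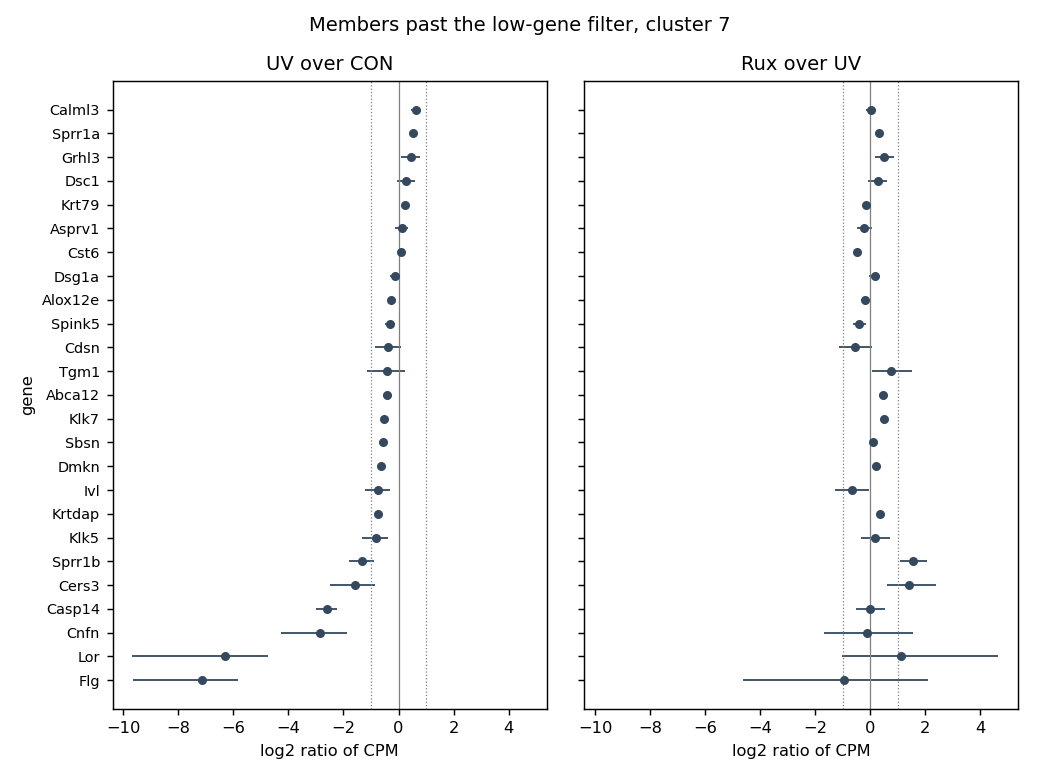
Log2 ratio of CPM (x axis) of the 25 members that passed the filter in cluster 7 (y axis, ordered by the ratio of UV over CON), with exact 95% counting intervals, for UV over CON on the left and Rux over UV on the right. Dotted lines mark a 2-fold difference. Flg and Lor lie at -7.15 and -6.30 in UV over CON with wide intervals, while Cst6, Asprv1 and Dsg1a lie near 0.

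Lor had 496 UMIs in the 256 CON cells of cluster 7, 2 in the 87 UV cells and 7 in the 91 Rux cells. The log2 ratio of UV over CON was -6.30 (-9.67 to -4.76) and that of Rux over UV 1.13 (-1.04 to 4.66), so the latter is not distinguished from no difference by counting error alone. Flg had 1250, 3 and 2 UMIs (-7.15, -9.65 to -5.82, and -0.94, -4.62 to 2.09). These 2 large ratios rest on a handful of CON cells, since the 5 cells with the most held 92.7% of the Lor and 94.6% of the Flg UMIs, and 1 cell held 689 of the Flg UMIs. With each cell thinned to 2000 UMIs, 3.94% of the CON cells (1.90% to 7.12%) kept a UMI of Lor, against 2.55% of fibroblast-like cells, which should lack it. Without thinning the shares were 13.7% and 8.33%, at median depths of 11920 and 6152 UMIs. In the 86 UV and 86 Rux cells that were deep enough 0 cells kept one, which allows a share of up to 4.20%. The interval of the CON share thus includes the share in fibroblast-like cells, and 5 CON cells had at least 5 UMIs each.

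Casp14 was spread over more cells. It had 903, 59 and 81 UMIs in CON, UV and Rux, or 249, 40.9 and 41.0 CPM, with log2 ratios of -2.59 (-3.01 to -2.22) and 0.00 (-0.50 to 0.52). A UMI was present in 113 of 256, 28 of 87 and 34 of 91 cells, or after thinning in 16.1%, 4.65% and 6.98%, against 0.187% of fibroblast-like cells in CON. In CON 1 cell held 231 of the UMIs. Cnfn had 135, 7 and 9 UMIs (-2.84, -4.28 to -1.86, and -0.11), and in neither gene did Rux stand above UV.

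Cers3 and Sprr1b were lower in UV and higher in Rux. Cers3 had 116, 15 and 56 UMIs, or 31.9, 10.4 and 28.4 CPM (-1.58, -2.50 to -0.84, and 1.41, 0.61 to 2.38). Sprr1b had 291, 46 and 186 UMIs, or 80.1, 31.9 and 94.2 CPM (-1.32, -1.81 to -0.88, and 1.55, 1.09 to 2.06). For both genes the levels in CON and Rux had overlapping intervals.

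The genes that lead this class were within 2-fold. Cst6 had 18537, 19614 and 14128 CPM in cluster 7 (0.08 and -0.47) and Krt79 6144, 7219 and 6451 CPM (0.23 and -0.16), with a UMI of Krt79 in 89.8%, 90.7% and 89.5% of thinned cells. Sprr1a had 779, 1108 and 1372 CPM (0.51 and 0.31), Dsg1a 282, 255 and 286 CPM, Asprv1 127, 137 and 119 CPM, and Spink5 293, 236 and 180 CPM. Krtdap had 2761, 1641 and 2078 CPM (-0.75 and 0.34), and Grhl3 53.7, 72.7 and 104 CPM (0.44 and 0.51). Asprv1 and Spink5, both at least 2-fold lower in UV over epithelial cells together, were thus within 2-fold in this class. Outside the members, Krt14 was higher in UV than in CON (2289, 5134 and 3207 CPM), and Krt10 was highest in Rux (1877, 1600 and 3449 CPM), so basal and suprabasal keratins also differed between the libraries within cluster 7, and their part in the other ratios was not tested.

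In cluster 3, the basal and upper-follicle cells below, 15 members passed. In UV over CON 0 were at least 2-fold lower and 2 higher, against 1.63% and 2.57% of 8510 genes, and in Rux over UV 2 were lower and 0 higher, against 1.18% and 0.470%. Calml3 had 11.1, 30.8 and 25.2 CPM (1.46, 0.99 to 1.96) and Tgm3 4.97, 19.6 and 22.1 CPM (1.95, 1.30 to 2.73). In Rux over UV, Klk7 had 46.8 against 5.92 CPM (-2.95, -3.66 to -2.36) after 59.4 CPM in CON, and Sprr1a 54.7 against 18.0 CPM (-1.59, -2.00 to -1.22) after 39.5 CPM. Tgm3 turned to -1.33 without doublet removal, and Calml3 (-0.13), Klk7 (0.87) and Sprr1a (0.79) turned sign at a clustering resolution of 0.6, so these 4 depended on which cells were counted in.

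The 22 UV and 77 Rux cells of cluster 4, interfollicular-basal-like, carried more of the early differentiation genes than the 467 CON cells. Krtdap had 146, 1767 and 786 CPM, Sbsn 53, 378 and 295 CPM, Dmkn 533, 1163 and 1022 CPM, and Abca12 103, 328 and 360 CPM, beside 494, 2345 and 1575 CPM of Krt10. Dsg1a, with 147, 151 and 162 CPM, differed little. With under 50 UV cells no ratio is given.

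The inner-sheath-like cluster 2 showed the lipid transporter and Tgm3 in the opposite direction to most members. Of 19 members that passed, 6 were at least 2-fold lower and 3 higher in UV over CON, against 2.19% and 2.36% of 7957 genes, and in Rux over UV 2 were lower and 0 higher, against 0.666% and 0.339%. Abca12 had 44.1, 213 and 137 CPM (2.27, 2.08 to 2.47, and -0.64), Tgm3 5.30, 19.4 and 23 CPM (1.85), and Ivl 6.32, 13.0 and 13.1 CPM (1.03). The lower ones were Krt79 (349, 18.0 and 6.00 CPM, -4.27 and -1.57), Asprv1 (137, 44.7 and 22.5 CPM, -1.61), Krtdap (-1.48), Sbsn (-1.46), Alox12e (-1.28) and Klk7 (66.0, 30.8 and 10.4 CPM, -1.10 and -1.57). The summed upper-follicle markers of this cluster were 2662, 790 and 753 CPM and its inner-sheath markers 4365, 10135 and 13821 CPM. The part of this shift in the members' ratios was not tested.

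In cluster 9, the outer-sheath-like cells, 14 members passed, of which 8 were at least 2-fold lower and 0 higher in UV over CON, against 4.45% and 4.08% of 8413 genes, with a median of -1.51. In Rux over UV 0 were lower and 3 higher, against 2.91% and 0.939%. Without doublet removal, however, 3 were lower and 1 higher, with Krtdap at -0.91 and Cst6 at -1.46, and no share of all genes was taken for that setting. Asprv1 and Spink5 passed the filter through their CON level alone. Krt79 had 3350, 207 and 155 CPM (-4.01, -4.18 to -3.85) and Krtdap 639, 4 and 32 UMIs (-6.91 and 1.96, the latter 0.62 to 4.07). Klk7 (-3.30), Spink5 (-3.22), Asprv1 (-2.91), Alox12e (-1.64) and Dmkn (-1.44) were lower as well. Cst6 had 308, 103 and 392 CPM (-1.58 and 1.92) and Sprr1a 83.3, 47.0 and 108 CPM (1.19 in Rux over UV). Sbsn, with 931, 1292 and 1295 CPM, was within 2-fold, so its neighbours Krtdap and Dmkn were lower in UV in cells where it was not.

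Among the remaining classes, the follicle cells found mainly in UV and Rux carried involucrin and Sprr1 genes. In cluster 10, Ivl had 42.7 CPM (38 to 47.7) in UV and 174 CPM (162 to 187) in Rux (2.03, 1.83 to 2.22), and Sprr1b 4.06 and 53.9 CPM (3.71, 3.17 to 4.34), on 29 and 238 UMIs. The cell with the most Ivl held 119 of 305 UMIs in UV and 131 of 768 in Rux, where 60 of 243 and 41 of 129 cells had any. Sprr1b passed the filter there through its Rux level alone. CON held 5 such cells, with 1 UMI of Ivl and 0 of Sprr1b. In cluster 6, Sprr1a had 20.7 CPM in UV and 63.7 CPM in Rux (1.62, 1.40 to 1.86), and in cluster 14, stem-like with pericyte genes, 32.5 and 92.2 CPM (1.49, 1.02 to 2.03). In the stem-like cluster 11, Sprr1a had 12.3, 74.1 and 29.2 CPM (2.56 and -1.33). In the hair-shaft-like cluster 16, Asprv1 had 25.2 CPM in UV and 108 CPM in Rux (2.08) and Tgm3 18.4 and 59.6 CPM (1.67). Of the 168 Asprv1 UMIs in Rux, 80 lay in 1 cell. Sprr1a thus stood at least 2-fold higher in Rux than in UV in clusters 6, 9 and 14 and lower in clusters 3, 11 and 16 (-1.17 in cluster 16, on 26 and 12 UMIs). The order in cluster 3 turned at a resolution of 0.6, and in cluster 11 the ratio was 0.00 with the members kept in clustering. Sbsn in cluster 16 had 36.8 CPM in UV and 96.7 CPM in Rux (1.38), with 74 of its 151 Rux UMIs in 1 cell. Dmkn in cluster 16 was lower in UV, at 51.8 CPM, than in CON, at 110 CPM (-1.08). In cluster 11, Cst6 was lower in UV, at 40.8 CPM, than in CON, at 122 CPM (-1.57). However, 1 of the 192 CON cells held 99 of its 188 UMIs. Krt79 had 40.8, 101 and 13.5 CPM (1.29 and -2.85) there, and 1 cell held 126 of its 133 UV UMIs. Both Krt79 ratios therefore rest largely on that cell. The first turned sign when doublets were kept (-3.25) or cells weighed equally (-0.82).

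In the sebaceous-like cluster 20, with 64 CON and 51 UV cells, 10 members passed the filter. In UV over CON, 7 of their ratios were above 0 and 3 below, with a median of 0.98 against -0.07 for all genes. Krtdap was lower in UV, on 51 and 5 UMIs (-3.06), and passed the filter through its CON level alone. Cst6 was lower within 2-fold (-0.94). In CON and UV in turn, Krt79 had 320 and 721 CPM (1.17, 1.01 to 1.33), Dmkn 93.1 and 205 CPM (1.14, 0.84 to 1.44) and Sprr1a 81.8 and 167 CPM (1.03). Sbsn had 33.2 and 69.3 CPM (1.05), which turned to -0.11 without doublet removal. In cluster 0, nearest to the dividing markers, Dmkn was lower in UV, with 158 and 59.4 CPM (-1.41), as was Krt79, with 33.9 and 9.36 CPM (-1.83). So were Cst6, with 30.5 and 10.2 CPM (-1.56), Asprv1, with 34.4 and 10.6 CPM (-1.67), and Dsg1a, with 18.5 and 5.29 CPM (-1.75). Krt79 and Dsg1a passed the filter there through their CON level alone, so they had to differ. Dmkn was also lower in UV in cluster 1 (75.4 and 26.8 CPM, -1.48), and in cluster 10 lower in Rux than in UV (29.6 and 14.0 CPM, -1.07). In cluster 17, stem-like with melanocyte genes, Sprr1a had 19.8 and 75.9 CPM for CON and UV (1.92) and Dsg1a 31.3 and 11.9 CPM (-1.39).

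Fibroblast-like cells, which should not make most of these proteins, also held their transcripts, as free RNA or in single cells. They had 27.3, 1.86 and 3.93 CPM of Lor and 27.1, 0.382 and 0.374 CPM of Lce1a1, and 20.2, 7.67 and 9.36 CPM of Krt79. In CON 56.2% of their Lor UMIs lay in 5 cells, 1 of which held 346. Sbsn was the exception, with 31.0, 70.1 and 69.9 CPM (1.18 in UV over CON), and it shares sequence with Tmem147os as given above. Over all retained cells, a sum that needs no class names, Lor had 136, 13.6 and 29.9 CPM (-3.32 and 1.14), Krtdap 353, 65.0 and 101 CPM (-2.44), and Lce1a1 36.0, 2.29 and 14.6 CPM (-3.97 and 2.67), while epithelial cells made up a smaller share of UV and Rux.

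Of 87 further genes of cornification, 45 passed the filter in epithelial cells. In UV over CON 8 were at least 2-fold lower and 1 higher, and in Rux over UV 2 were lower and 6 higher, with medians of 0.00 and 0.19, against the shares of all genes given above (0.899%, 1.43%, 0.715% and 0.646%). Without cluster 23, 39 passed, and the counts were 3 lower and 1 higher in UV over CON and 2 lower and 1 higher in Rux over UV. The lower ones in UV were the late envelope genes Lce1a2, Lce1d, Lce1l and Lce1m, with log2 ratios from -6.58 to -4.01, Crct1 (-2.18) and Cysrt1 (-1.53), the kallikrein Klk8 (-2.52) and the ceramidase Acer1 (-1.10). Padi3, a deiminase of the follicle, was higher (1.31). The 4 Lce1 genes were higher in Rux than in UV, from 3.97 to 5.87, as were Crct1 (1.51) and Padi3 (1.00). The ones lower in Rux were Slc27a4 (-1.76) and Elovl4 (-1.26), which serve the synthesis of long-chain lipids, beside 34, 19 and 1 cells of a sebaceous-like cluster that Elovl4 helps to lead, whose part was not tested. Of 13 junction genes 11 passed, and 0 were at least 2-fold different in either comparison, with medians of 0.04 and 0.19. Dsp had 631, 662 and 1051 CPM (0.07 and 0.67) and Jup 314, 318 and 349 CPM (0.02 and 0.13). In cluster 7, 48 of the 87 passed, of which 3 were lower and 1 higher in UV over CON and 2 lower and 0 higher in Rux over UV, where 2.83%, 2.51%, 1.90% and 1.75% of all genes were, so these few are near the background. With at least 100 UMIs, Klk8 (-1.69) and the cystatin Csta1 (-1.71) were lower and Crct1 (1.59) higher in UV over CON, and Crct1 (-2.51) was lower in Rux over UV, opposite to its order over all epithelial cells.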

How the data were processed

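Dissociated dorsal skin was profiled by 10x 3′ single-cell RNA-seq (v3.1), with 1 library per condition. Per the labels the authors ran Cell Ranger 6.1.2 on mm10, while the headers of the deposited matrices name 7.0.0. The deposited values are raw counts of UMIs per gene and cell, with no normalization.

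From these counts, cells with under 200 genes or over 10% mitochondrial UMIs were dropped, and doublets were removed by Scrublet scores at 0.8% per 1000 cells of a library. Cells were clustered in Seurat 5.3.0 (2000 variable genes, 30 principal components, resolution 1.5, then 1.0 for epithelial cells), with 125 member and wider-list genes left out. Clusters were named from fixed markers. The wider list had 88 genes, of which 87 were found. UMIs were summed per class and library and given as CPM with exact Poisson intervals. Shares have exact Clopper-Pearson intervals, and log2 ratios, with 0.5 UMI added, have exact conditional binomial intervals. The latter were tried only on simulated Poisson counts, the error they assume, which leaves out differences between cells. Genes needed a mean of 10 CPM over the libraries (for clusters with a library under 50 cells, over the 2 compared) and 20 UMIs, and ratios needed 50 cells per library. Shares of cells with a UMI were taken after thinning to 2000 UMIs. A gene was counted as higher or lower from 2-fold on, and no test was run.

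Every member was accounted for, and described in full where it was past 2-fold with at least 100 UMIs or led its role group. Outside the members, Krt1, Krt10, Krt5, Krt14 and wider-list genes past 2-fold with at least 100 UMIs were named by the rule, and Dsp, Jup, Xist and Ddx3y after their values were seen. The members and lists were chosen with earlier results of these data known. Alternatives were other filters on low genes, 1 UMI added, other scalings (median-of-ratios size factors, totals without dominant genes), subtraction of free RNA, no thinning, no doublet removal, stricter cell filters, clustering with the members kept, resolutions of 0.6 and 1.5, the gate, equal weight per cell, class shares of CON and the epithelial cells without cluster 23. Python 3.11.15, numpy 2.4.6, scipy 1.17.1, pandas 2.3.3, scanpy 1.11.5, matplotlib 3.10.9 and R 4.3.3 were used.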

Additional observations from a re-analysis of the deposited data

How the results depend on the processing

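No paired analysis was possible because each condition has 1 library, and for the same reason no replicate could be left out. Counts of members at least 2-fold different changed by less than 1.5 times in 397 of 516 recomputations, and log2 ratios kept their sign and size in 742 of 865, moved in 111 and reversed in 12. Shares of all genes were taken only for the main settings and without cluster 23. The counts of the other settings therefore cannot be set against a background and show only how far the counts moved. Without the low-gene filter, UV over CON had 17 lower and 3 higher members in epithelial cells, 16 and 7 in cluster 2, 12 and 7 in cluster 3, 14 and 2 in cluster 7, and 17 and 6 in cluster 9. Rux over UV then had 2 lower and 11 higher in epithelial cells, 5 and 8 in cluster 2, 4 and 7 in cluster 3, 7 higher in cluster 7, and 3 lower and 9 higher in cluster 9, since genes of few UMIs enter. With a minimum of 100 UMIs as the only filter, epithelial cells had 17 lower in UV over CON and 11 higher in Rux over UV, and cluster 3 had 1 lower in UV over CON. With equal weight per cell, UV over CON had 2 higher in epithelial cells and 1 lower in cluster 3, and Rux over UV had 1 lower in clusters 2 and 7 and 2 lower in cluster 9. Without cluster 23, a choice made after seeing the data, Rux over UV had 1 higher in epithelial cells. Stricter cell filters gave 1 higher in cluster 3 for UV over CON and 2 lower in cluster 7 for Rux over UV. Without doublet removal, cluster 3 had 0 higher in UV over CON and 0 lower in Rux over UV, and Rux over UV had 1 lower in cluster 7 and 3 lower and 1 higher in cluster 9. With the members kept in clustering, Rux over UV had 4 lower in cluster 2, 0 in cluster 3 and 1 in cluster 9, and UV over CON 1 lower in cluster 3. At resolution 0.6, cluster 3 had 15 lower and 1 higher in UV over CON and 0 lower and 1 higher in Rux over UV. The gate gave suprabasal shares of 2.05%, 0.195% and 0.409%.

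Reversed log2 ratios were those of Ivl (-0.41) and Krtdap (0.06) in epithelial cells for UV over CON with the class shares of CON. In cluster 3 they were Calml3 (-0.13), Sprr1a (0.79) and Klk7 (0.87) at resolution 0.6 and Tgm3 (-1.33) without doublet removal. Without doublet removal, Krtdap (-0.91) and Cst6 (-1.46) reversed in cluster 9 for Rux over UV, and Krt79 (-3.25) in cluster 11 and Sbsn (-0.11) in cluster 20 for UV over CON. Krt79 in cluster 11, where 1 cell held 126 of its 133 UV UMIs, also reversed with equal weight per cell (-0.82). Sprr1a in cluster 11 reached 0.00 in Rux over UV with the members kept. The cause was not tested. Cluster 23, with 53 cells, and the 4 UV cells of cluster 12 limit what the depth can show for late envelope genes.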
